A study of Mus musculus with 13 samples.

Results

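Kidneys of mice that lost Pkd1 in their tubules were compared with control kidneys at postnatal day 10, over all genes. The comparison rests on 4 RNA-seq libraries of the 13 in the series, 2 of knockouts and 2 of controls, chosen by their labels alone. Mice of both groups were C57BL/6 with floxed Pkd1 alleles, and the controls lacked the KSP/Cre transgene (KSP/Cre-;Pkd1f/f) that the knockouts carried (KSP/Cre+;Pkd1f/f). Any effect of Cre itself cannot be told apart from that of the deletion, since no library held Cre with an intact Pkd1. KSP/Cre is driven by the promoter of Cdh16, kidney-specific cadherin, so that recombination occurs in tubule epithelium and other kidney cells keep the floxed gene. The sources used here do not say whether a library came from 1 animal or from several. The p-values measure a spread within groups, pooled over all 8 kidney libraries, the Pkd2 ones included, and drawn towards that of other genes. That spread may be technical. The other libraries, from Pkd2 kidneys at day 20 and from mIMCD-3 cells treated with gapmers, were not compared with the 4 Pkd1 libraries except where stated. The Pkd2 controls were Pkhd1/Cre-;Pkd2f/f and the Pkd2 knockouts Pkhd1/Cre+;Pkd2f/f. Titles of both Pkd2 knockout libraries read WT, whereas their genotype labels and column names, which were followed here, give knockouts.

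Pkd1 encodes polycystin-1, a large membrane protein that acts with polycystin-2 in the primary cilium of tubule cells, and its loss there is the main cause of autosomal dominant polycystic kidney disease. Fluid-filled cysts then grow from the tubules, and the tissue around them is known to gain myofibroblasts, matrix and macrophages. In a healthy kidney each tubule segment carries its own transporters: the proximal tubule takes back sugar, phosphate and amino acids, the thick ascending limb and distal tubule take back salt, and the collecting duct sets the final water, salt and acid content of the urine.

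Values are the authors' deposited ones, CPM (reads scaled by library size) over a further scaling factor of the library, and are given for control replicates 1 and 2 and then knockout replicates 1 and 2. A log2 change is knockout minus control on log2(value + 1), with its standard error (SE), which understates the change of genes with low values. A gene was called at an adjusted p below 0.05 (limma, Benjamini-Hochberg over all genes tested), and only called genes are said to have risen or fallen. Each call was repeated in 4 fits that left out 1 Pkd1 library each, which assumes that the lone library of a group varies like the other groups. "Held in 3 of 4" means that the call was made in 3 of those fits, and a call without such a count held in all 4. For most gene lists, the range of calls over the same 4 fits is given.

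Reads behind the values came to between 34.1 and 94.4 M per Pkd1 library. Log2 values correlated more within a group (r between 0.976 and 0.982 across genes) than between groups (0.938 to 0.950). Mitochondrially encoded genes took 27.4% and 38.7% of all signal in the controls and 22% and 22.5% in the knockouts, and small structural RNAs 15%, 22.8%, 28.3% and 13% in the same order. Xist, made in female cells, was at 0.221 and 416 in the controls and 25.3 and 27.7 in the knockouts, while the 4 Y-linked genes summed to 155, 10.4, 149 and 183. Control replicate 2 thus stood apart in these transcripts. Both knockouts held Xist and Y-linked signal together, and so did control replicate 2, with a Y-linked sum of 10.4 beside Xist at 416. Summed markers of fat overlapped between the groups (130.4, 91.4, 124 and 121). Those of skeletal muscle and the adrenal gland stayed between 3.39 and 9.21, with the adrenal marker Pnmt at 0 in all 4 libraries and 13 of 14 adrenal markers below 1. Summed liver markers were lower in the knockouts (149, 144, 53.3 and 84.2), with Ttr at 50.9 and 48.3 against 24.6 and 17.4, and red cell markers ran from 890.4 to 1168.

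The targeted gene does not check the labels. Pkd1, at chr17:24549950-24596514 on the plus strand (mm10), was at 31.1 and 22.7 in the controls and 24.1 and 26 in the knockouts (log2 change -0.08 ± 0.19, adjusted p = 0.817, not called). A value per gene includes exons that Cre leaves in place and cells that Cre does not reach. Cdh16, whose promoter drives Cre, was at 263 and 211 in the controls and 231 and 268 in the knockouts (log2 change 0.08 ± 0.23, adjusted p = 0.86, not called), so the level of this tubule marker overlapped between the groups.

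Of 28183 genes listed, 14637 reached a value of 1 in at least 2 kidney libraries and entered the test. A gene of low level could enter through 1 group alone, so that entry was not independent of its change. Of the 14637 tested, 1550 (10.6%) were called. Of these, 748 (5.11%) rose and 802 (5.48%) fell, and 904 differed by 2-fold or more. Both knockouts lay above both controls in 29.1% of tested genes and below both in 29.2%. The median log2 change over all tested genes was -0.00207, with quartiles at -0.29 and 0.27. Leaving out control replicate 1, control replicate 2, knockout replicate 1 or knockout replicate 2 left 332, 350, 535 or 809 calls. In all 4 of those fits 223 of the calls were kept, and no called gene changed direction in any of them. With the share of Y-linked signal as a covariate 1617 genes were called, among them 76.5% of the 1550. The plot of level against change shows that calls were spread over the range of levels.

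**Figure D1:**
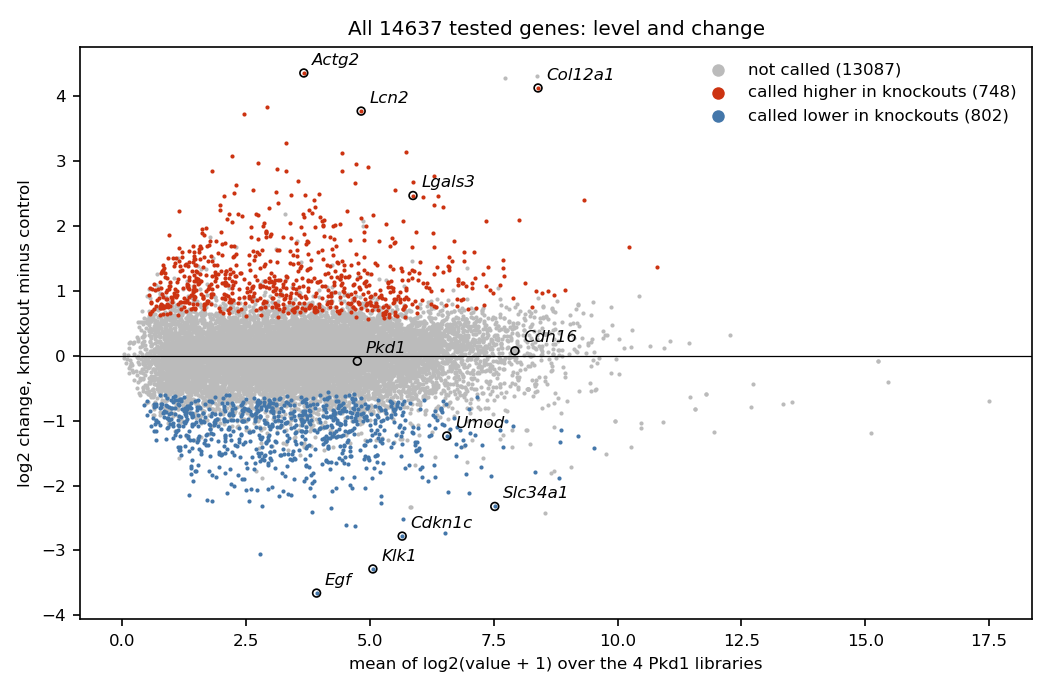
Each point is a tested gene, with its mean log2(value + 1) over the 4 Pkd1 libraries on the x axis and its log2 change (knockout minus control) on the y axis; red and blue mark the 748 genes called higher and the 802 called lower. Pkd1 and Cdh16 lie near 0, while Actg2 and Col12a1 lie above 4 and Egf below -3.

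The largest rises were in smooth muscle, matrix, injury and response genes. Actg2, the gamma actin of smooth muscle (chr6:83512905-83536265, minus strand), was at 2.27 and 1.4 in the controls and 65.4 and 48.6 in the knockouts (log2 change 4.36 ± 0.22, adjusted p = 0.000195). Col12a1, a collagen found along fibrils (chr9:79598991-79718831), reached 89 and 70.9 against 1381 and 1426, controls against knockouts (log2 change 4.13 ± 0.24, adjusted p = 0.000255). Il18r1, a receptor chain for interleukin 18, was close to 1 in both controls and at 31.1 and 24.5 in the knockouts (log2 change 3.84 ± 0.23, adjusted p = 0.000255). Lcn2, a lipocalin that injured tubules release, was at 7.04 and 6.3 in the controls and 85.3 and 125 in the knockouts (log2 change 3.77 ± 0.31, adjusted p = 0.000728). The next 7 of the 11 largest rises were Fos, S100a14, Mal2, Btc, Egr2, Cnn1 and Sulf1, with log2 changes between 2.95 ± 0.30 and 3.73 ± 0.37. In each of the 11 genes both knockouts were above both controls, and each call held in all 4 fits.

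The largest falls were in a growth factor, a cell cycle inhibitor and genes of the proximal and distal tubule. Egf, the epidermal growth factor made by the distal nephron (chr3:129677565-129755316, minus strand), was at 59.4 and 47 in the controls and 2.69 and 3.94 in the knockouts (log2 change -3.66 ± 0.27, adjusted p = 0.000476). Klk1, a kallikrein of the connecting tubule with near-identical paralogs, was at 124 and 85.5 against 5.78 and 15.8, with the lower knockout value in replicate 1 (log2 change -3.28 ± 0.46, adjusted p = 0.00449, held in 3 of 4). Cdkn1c, an imprinted inhibitor of cyclin-dependent kinases (chr7:143458350-143461050, minus strand), was at 137 and 124 in the controls and 18.2 and 18.2 in the knockouts (log2 change -2.78 ± 0.20, adjusted p = 0.000476). Miox, which opens the ring of inositol in the proximal tubule, was at 282 and 193 in the controls and 41.4 and 28.5 in the knockouts (log2 change -2.73 ± 0.44, adjusted p = 0.00681, held in 3 of 4). The other 11 were Slc13a3, Gsta2, Slc5a2, Slc16a4, Agxt2, Slc34a1, Egfl6, Susd2, Ppp1r1a, Cckar and Slc6a20b, between -2.63 ± 0.37 and -2.16 ± 0.29. Both knockouts were below both controls in each of the 15. Klk1, Miox, Slc13a3, Agxt2 and Ppp1r1a held in 3 of 4 fits and Gsta2 in 2 of 4.

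**Figure D2:**
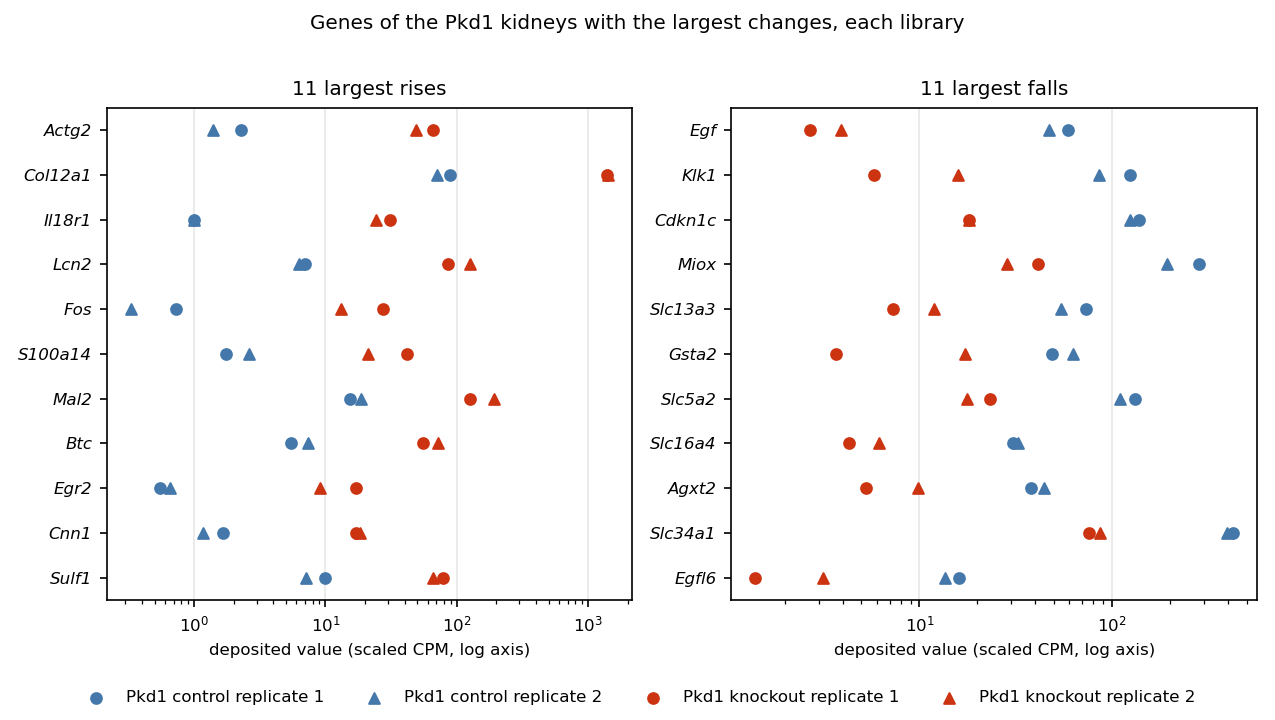
Deposited values (scaled CPM, log axis) of the 11 genes with the largest rises (left) and the 11 with the largest falls (right), 1 point per library, blue for controls and red for knockouts, circles for replicate 1 and triangles for replicate 2. In every gene shown the red points lie to 1 side of the blue ones, as for Egf at 59.4 and 47 against 2.69 and 3.94.

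Of the 68 gene lists examined beside the lists of other tissues, the shares called ran from 0% of the DNA replication and ER chaperone genes to 65.5% of the macrophage genes, against 10.6% of all tested genes. Proximal tubule carriers, intercalated cell genes and inositol, carnitine and creatine genes had the highest shares of falls. Macrophage genes, keratins and mucins, and S100 and annexin genes had the highest shares of rises. Several lists share members, such as the C1q genes in both the macrophage and complement lists. The lists were chosen with earlier results of these data known, so a share above that of all tested genes is a description and no independent support.

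**Figure D3:**
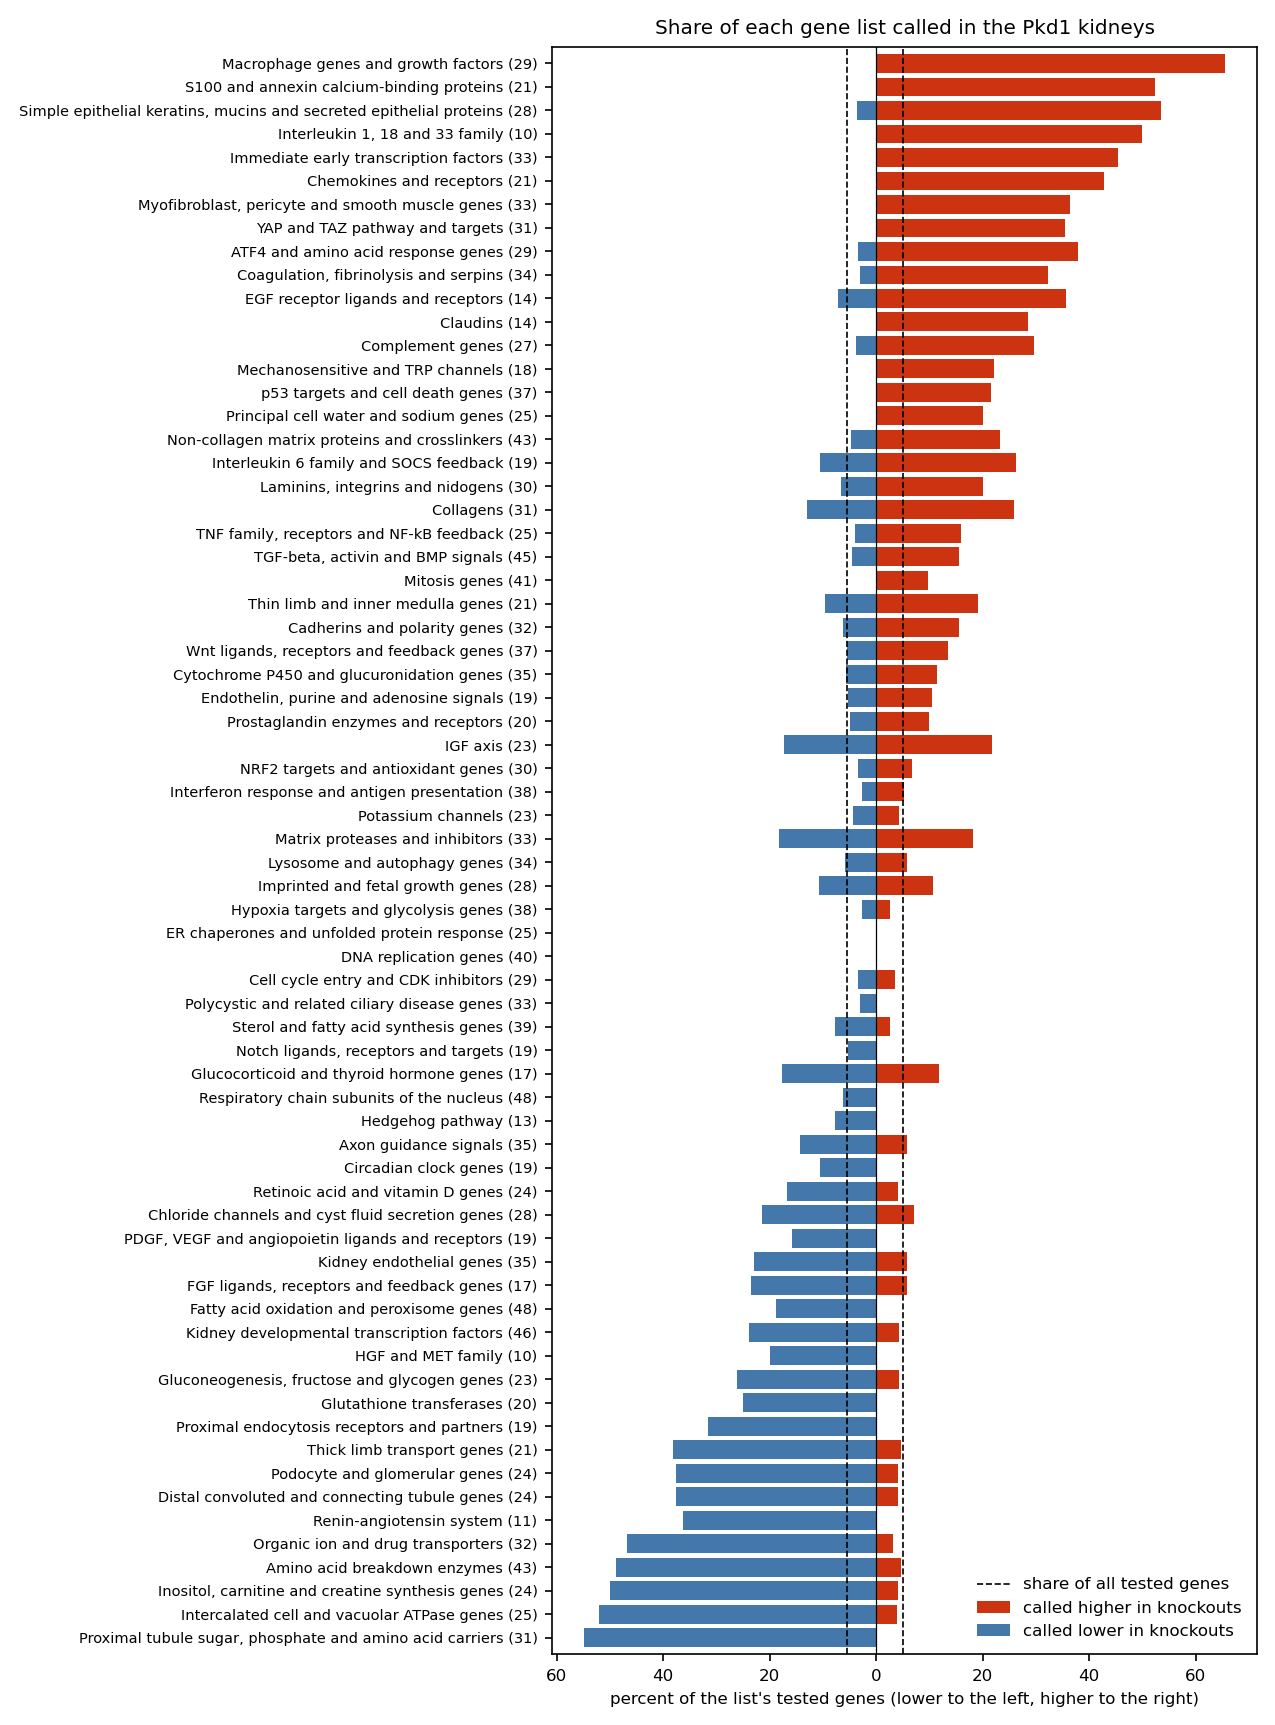
Bars give the percent of each list's tested genes (number in parentheses) called higher (red, right) or lower (blue, left) in the knockouts, ordered by the difference of both shares. The dashed lines stand at 5.11% and 5.48%, the shares of all tested genes called higher and lower, and most transport and metabolic lists extend past the left line.

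Among ligands of the EGF receptor, which drives growth of tubule cells, the distal ligand Egf fell while Btc and Hbegf rose. Of 14 tested members of this family, 5 rose, 1 fell and 8 were not called (median log2 change 0.47). Btc, betacellulin, was at 5.43 and 7.32 in the controls and 54.9 and 71.9 in the knockouts (log2 change 3.12 ± 0.31, adjusted p = 0.00144). Egfr itself was about 2 times as high, at 26.4 and 23.2 in the controls and 49.2 and 52.9 in the knockouts, but its call depended on every library (log2 change 1.02 ± 0.20, adjusted p = 0.0166, held in 0 of 4). Errfi1, a feedback inhibitor of the receptor, was at 33 and 34.8 against 61.4 and 74.8 (log2 change 0.98 ± 0.21, adjusted p = 0.0223, held in 0 of 4). The heparin-binding ligand Hbegf (0.85 ± 0.23) and the receptor Erbb4 (0.66 ± 0.17) rose with weaker calls, held in 1 and 0 of 4. Without 1 library the rises of the family numbered 1 to 2 (fewest without control replicate 1 or control replicate 2 or knockout replicate 1), and the fall of Egf stayed in every fit.

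In the FGF, vascular and HGF lists more genes fell than rose. In the FGF list 4 of 17 fell and 1 rose (median -0.16). Kl, the alpha-klotho co-receptor of the distal tubule, was at 123 and 115 in the controls and 31.4 and 40.4 in the knockouts (log2 change -1.71 ± 0.25, adjusted p = 0.00512, held in 3 of 4). The receptors Fgfr3 (-1.34 ± 0.25, adjusted p = 0.012, held in 1 of 4) and Fgfr4 (-1.26 ± 0.21, adjusted p = 0.0087, held in 2 of 4) fell, and the ligand Fgf2 was at 1.25 and 1.4 against 3.8 and 3.7 (1.03 ± 0.20, adjusted p = 0.0144, held in 0 of 4). Of 19 PDGF, VEGF and angiopoietin genes 3 fell: the ligand Pdgfa (-0.95 ± 0.17, adjusted p = 0.00969, held in 1 of 4) and the endothelial receptors Tek (-1.02 ± 0.23, adjusted p = 0.0256, held in 0 of 4) and Tie1 (-0.96 ± 0.24, adjusted p = 0.0359, held in 0 of 4). Vegfa was at 148 and 121 against 60.4 and 119, with knockout replicate 2 inside the range of the controls (log2 change -0.65 ± 0.29, adjusted p = 0.193, not called). In the HGF and MET list 2 of 10 fell, the activator protease Hgfac and the protease Hpn, while Met was not called (0.35 ± 0.22). Neither of these 2 falls held in all 4 fits. The falls in these lists numbered 0 to 4 (fewest without control replicate 1), 0 to 2 (fewest without control replicate 1 or control replicate 2 or knockout replicate 1) and 0 to 1 (fewest without control replicate 1 or control replicate 2 or knockout replicate 1) when 1 library was left out.

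Ligands of the TGF-beta and Wnt families rose in part. Of 45 TGF-beta, activin and BMP genes 7 rose and 2 fell (median 0.31). Tgfb3 was at 2.44 and 2.03 in the controls and 10.1 and 10.8 in the knockouts (log2 change 1.82 ± 0.16, adjusted p = 0.00101). Tgfb2 was at 6.75 and 6.82 against 23.7 and 20.5 (log2 change 1.56 ± 0.18, adjusted p = 0.00221). In both ligands the knockouts were close to each other and far above the controls. Ltbp2, a binding protein of the matrix in this family, was at 0.771 and 0.35 against 5.56 and 4.44 (log2 change 1.95 ± 0.30, adjusted p = 0.00634, held in 3 of 4). Bmp3 was at 10.1 and 9.42 against 32.1 and 75.8, with a wide gap between the knockouts (log2 change 2.23 ± 0.37, adjusted p = 0.0084, held in 2 of 4). The activin subunit Inhbb rose (1.06 ± 0.21, adjusted p = 0.0166, held in 0 of 4), whereas the decoy receptor Bambi fell (-0.93 ± 0.17, adjusted p = 0.0117, held in 1 of 4). Of 37 Wnt genes 5 rose and 2 fell (median 0.14). Wnt9a was at 1.28 and 1.49 in the controls and 11.2 and 8.66 in the knockouts (log2 change 2.19 ± 0.18, adjusted p = 0.000695). Wnt7b, a ligand of the collecting duct, was at 17.6 and 12.4 against 55.2 and 51.7 (log2 change 1.78 ± 0.31, adjusted p = 0.01, held in 2 of 4). Wnt7a, a close relative of Wnt7b, was nearly absent from the controls and at 3.14 and 2.24 in the knockouts (log2 change 1.86 ± 0.28, adjusted p = 0.00607, held in 2 of 4). The Wnt antagonists Frzb (2.18 ± 0.23, adjusted p = 0.00159) and Nkd2 (1.21 ± 0.17, adjusted p = 0.00491) rose with them. Without 1 library, rises numbered 2 to 4 (fewest without control replicate 2) in the TGF-beta list and 3 to 5 (fewest without control replicate 2) in the Wnt list. In the Notch list 1 of 19 was called, the glycosyltransferase Rfng (-0.96 ± 0.22, adjusted p = 0.027, held in 1 of 4), and in the hedgehog list 1 of 13, the inhibitor Sufu, at 24.2 and 20.1 against 9.46 and 8.87 (log2 change -1.18 ± 0.20, adjusted p = 0.00818, held in 3 of 4).

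Receptors and feedback genes of inflammatory cytokines were among the genes that rose. Of 19 interleukin 6 family genes 5 rose and 2 fell (median 0.38). Osmr, the oncostatin M receptor, was at 4.84 and 5.93 in the controls and 28.6 and 37.4 in the knockouts (log2 change 2.41 ± 0.27, adjusted p = 0.00211). Socs3, a feedback inhibitor induced by STAT3, was at 1.58 and 1.44 against 12.5 and 8.32 (log2 change 2.16 ± 0.23, adjusted p = 0.00168). Stat3 itself was at 63.6 and 52.8 against 135 and 171 (log2 change 1.38 ± 0.23, adjusted p = 0.00897, held in 1 of 4). The ligand Lif was below 1 in the controls and at 4.62 and 1.82 in the knockouts (log2 change 1.59 ± 0.33, adjusted p = 0.02, held in 1 of 4). Il6 was at 0.0328 and 0 against 1.32 and 0.868 (log2 change 1.03 ± 0.41, adjusted p = 0.145, not called). In the interleukin 1, 18 and 33 family 5 of 10 rose (median 0.98), among them the receptor Il1r1, at 7.97 and 5.99 in the controls and 29.2 and 36.2 in the knockouts (log2 change 2.08 ± 0.30, adjusted p = 0.00491, held in 3 of 4). The others were Il18r1, Il1rl2 (1.16 ± 0.22, adjusted p = 0.0126, held in 1 of 4), Il1rap (1.07 ± 0.21, adjusted p = 0.0169, held in 0 of 4) and the alarmin Il33 (0.89 ± 0.23, adjusted p = 0.0444, held in 1 of 4). Only 10 of the 18 genes listed for this family were tested, and entry could depend on the change itself. Its share and median thus do not describe the whole family. Of 25 TNF family genes 4 rose and 1 fell, with Tnfsf15 at 0.681 and 0.722 against 5.21 and 3.62 (log2 change 1.65 ± 0.30, adjusted p = 0.011, held in 1 of 4) and the TWEAK receptor Tnfrsf12a at 5.15 and 7.28 against 24.5 and 13.6 (log2 change 1.44 ± 0.28, adjusted p = 0.015, held in 1 of 4). Rises numbered 2 to 4 (fewest without control replicate 1 or control replicate 2), 1 to 4 (fewest without control replicate 2) and 0 to 2 (fewest without control replicate 1 or control replicate 2 or knockout replicate 1) in these lists without 1 library.

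The IGF axis was split. Of its 23 tested genes 5 rose and 4 fell (median -0.18). Both ligands fell: Igf1 was at 50.7 and 59.5 in the controls and 26.8 and 15.3 in the knockouts (log2 change -1.39 ± 0.25, adjusted p = 0.0101, held in 2 of 4). Igf2, imprinted and high in the young kidney, was at 46 and 47.8 against 22.5 and 19 (log2 change -1.14 ± 0.18, adjusted p = 0.00663, held in 2 of 4). Igfals, which stabilises circulating IGF, was at 3.27 and 2.21 against 0.295 and 0.402 (log2 change -1.46 ± 0.23, adjusted p = 0.00665, held in 3 of 4). Among binding proteins Igfbp2 was at 31.1 and 18.2 in the controls and 109 and 98.4 in the knockouts (log2 change 2.08 ± 0.32, adjusted p = 0.00648, held in 3 of 4), and Igfbp3 rose too (1.12 ± 0.20, adjusted p = 0.0103, held in 1 of 4). The knockouts thus had lower ligand and higher Igfbp2 and Igfbp3 transcript levels. Without 1 library 0 to 3 (fewest without control replicate 2) rises and 0 to 3 (fewest without control replicate 1) falls were left.

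A few guidance signals, first known from growing axons, changed, in both directions. Of 35 tested 2 rose and 5 fell, and falls numbered 1 to 4 (fewest without control replicate 2) without 1 library. Sema3c was at 51.6 and 60.3 in the controls and 164 and 159 in the knockouts (log2 change 1.52 ± 0.21, adjusted p = 0.00423), while Sema3d was at 35.5 and 35 against 12.6 and 11.2 (log2 change -1.49 ± 0.19, adjusted p = 0.00327). Robo2, a receptor that limits ureteric budding, was at 53.4 and 62.9 against 20.6 and 26 (log2 change -1.29 ± 0.20, adjusted p = 0.00608, held in 3 of 4). Its ligand Slit2 was at 142 and 116 against 413 and 264 (log2 change 1.36 ± 0.27, adjusted p = 0.0171, held in 1 of 4). Receptor and ligand of this pair thus differed in opposite directions. In the renin-angiotensin list 4 of 11 fell, the peptidases Anpep (-1.45 ± 0.22, adjusted p = 0.0055, held in 3 of 4), Enpep (-0.96 ± 0.18, adjusted p = 0.0142, held in 1 of 4) and Ace (-1.87 ± 0.40, adjusted p = 0.022, held in 1 of 4) and the receptor Agtr1a (-1.31 ± 0.32, adjusted p = 0.0341, held in 1 of 4). Ace, found on proximal brush border and endothelium, was at 147 and 107 against 20.3 and 55.2, a wide gap between the knockouts. Without 1 library the falls of this list numbered 0 to 4 (fewest without control replicate 1).

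Members of the proximal tubule lists of transport, drug handling and endocytosis fell. Among 31 carriers of sugar, phosphate and amino acids 17 fell and 14 were not called, with a median log2 change of -1.33. With 1 library left out, 6 to 15 (fewest without control replicate 1) still fell. Slc34a1, the main phosphate carrier (chr13:55399648-55414695, minus strand), was at 425 and 395 in the controls and 76 and 86.6 in the knockouts (log2 change -2.32 ± 0.28, adjusted p = 0.00252). Slc5a2, the glucose carrier SGLT2, was at 132 and 111 in the controls and 23.2 and 17.6 in the knockouts (log2 change -2.52 ± 0.29, adjusted p = 0.00235). The monocarboxylate carrier Slc16a4 was at 30.6 and 32.4 against 4.31 and 6.14 (log2 change -2.4 ± 0.18, adjusted p = 0.000476). The knockout means of these 3 genes were 0.198, 0.169 and 0.166 times the control means. Slc7a8, an amino acid exchanger of the basal membrane (-1.79 ± 0.25, adjusted p = 0.00447), Slc26a1, a sulfate exchanger (-1.4 ± 0.16, adjusted p = 0.00237), and the proline carrier gene Slc6a20b (-2.16 ± 0.29, adjusted p = 0.00389) fell as well. Slc5a12, a lactate carrier, was at 177 and 208 against 57.8 and 91.3 and missed the threshold (log2 change -1.39 ± 0.38, adjusted p = 0.0516, not called). In bulk tissue, fewer cells of a type and less RNA per cell cannot be told apart.

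Of 32 organic ion and drug transporters 15 fell and 1 rose (median -0.73). Slc22a8, the anion transporter OAT3, was at 98.3 and 89.6 in the controls and 27.9 and 27.3 in the knockouts (log2 change -1.73 ± 0.23, adjusted p = 0.00363). Slc22a2, the cation transporter OCT2, was at 18.7 and 14.3 against 3.96 and 4.02 (log2 change -1.8 ± 0.25, adjusted p = 0.00457, held in 3 of 4). Slc22a18, a gene of the same imprinted cluster as Cdkn1c, was at 55 and 43.8 against 11.1 and 11.4 (log2 change -2.03 ± 0.30, adjusted p = 0.00514, held in 3 of 4). The exception was Abcc4, a pump that exports anions and cyclic AMP, at 16.6 and 14.4 in the controls and 40.7 and 45.9 in the knockouts (log2 change 1.42 ± 0.22, adjusted p = 0.00589, held in 3 of 4). Of 19 endocytosis genes 6 fell, led by the receptor Cubn, at 165 and 198 in the controls and 60.02 and 62.1 in the knockouts (log2 change -1.55 ± 0.21, adjusted p = 0.00443), and by Lrpap1, a chaperone of megalin (-1.41 ± 0.23, adjusted p = 0.00823, held in 1 of 4). The partner receptor Lrp2, megalin, was at 785 and 1035 against 339 and 426 (log2 change -1.24 ± 0.29, adjusted p = 0.0317, held in 0 of 4). Dab2, their adaptor, was at 647 and 739 against 288 and 338 (log2 change -1.15 ± 0.26, adjusted p = 0.0268, held in 0 of 4). Without 1 library the falls numbered 3 to 9 (fewest without control replicate 1) among transporters and 1 to 3 (fewest without control replicate 1 or control replicate 2 or knockout replicate 1) among endocytosis genes.

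Some thick limb and distal tubule genes fell, and most were not called. Of 21 thick limb genes 8 fell, 1 rose and 12 were not called (median -0.91). Umod, uromodulin, was at 172 and 119 in the controls and 49.8 and 72.5 in the knockouts (log2 change -1.24 ± 0.26, adjusted p = 0.0208, held in 1 of 4). The salt carrier Slc12a1, NKCC2, was at 800.2 and 659 against 222 and 376 (log2 change -1.33 ± 0.31, adjusted p = 0.0295, held in 1 of 4). Bsnd, barttin, a subunit of chloride channels, was at 20.8 and 14.2 against 5.35 and 5.44 (log2 change -1.51 ± 0.22, adjusted p = 0.00542, held in 3 of 4). The phosphatase inhibitor Ppp1r1a was at 12.9 and 10.7 against 1.25 and 2.26 (log2 change -2.24 ± 0.34, adjusted p = 0.00608, held in 3 of 4). Stk39, the kinase SPAK that activates these salt carriers, went the other way, at 23.6 and 21.6 against 40.7 and 45.6 (log2 change 0.90 ± 0.17, adjusted p = 0.013, held in 0 of 4). Of 24 distal convoluted and connecting tubule genes 9 fell and 1 rose (median -0.51). Slc12a3, the thiazide-sensitive carrier NCC, was at 62.3 and 46.5 in the controls and 14.2 and 16.9 in the knockouts (log2 change -1.74 ± 0.24, adjusted p = 0.00423). The parathyroid hormone receptor Pth1r, also found in the proximal tubule, was at 217 and 177 against 40.5 and 49.4 (log2 change -2.11 ± 0.26, adjusted p = 0.00278). Trpv5, the calcium channel of this segment, rose, at 5.59 and 5.31 in the controls and 13.9 and 14.5 in the knockouts (log2 change 1.23 ± 0.18, adjusted p = 0.00542, held in 3 of 4). Falls numbered 0 to 7 (fewest without control replicate 1) in the thick limb list and 3 to 6 (fewest without control replicate 1) in the distal list without 1 library.

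Of the collecting duct genes, some of principal cells rose and some of intercalated cells fell. Among 25 principal cell genes 5 rose and 20 were not called (median 0.31), with 2 to 3 (fewest without control replicate 1 or control replicate 2 or knockout replicate 2) rises without 1 library. Scnn1a, the alpha subunit of the epithelial sodium channel, was at 44.6 and 34 in the controls and 141 and 153 in the knockouts (log2 change 1.89 ± 0.18, adjusted p = 0.00142), and Avpr2, the vasopressin receptor that raises cyclic AMP, at 3.75 and 2.67 in the controls and 12.6 and 15.4 in the knockouts (log2 change 1.84 ± 0.20, adjusted p = 0.00199). Both held in every fit, whereas Scnn1g, Elf5 and Pde4b, a phosphodiesterase that breaks down cyclic AMP, held in 0. Aqp3, a water channel, was at 26.9 and 22.5 against 20.02 and 98, with the knockouts on either side of the controls (log2 change 0.83 ± 0.58, adjusted p = 0.392, not called). Among 25 intercalated cell genes 13 fell and 1 rose (median -1.08), and 8 to 12 (fewest without control replicate 1 or knockout replicate 1) fell without 1 library. Slc26a4, pendrin of the bicarbonate-secreting type, was at 4.82 and 5.6 in the controls and 0.781 and 0.825 in the knockouts (log2 change -1.78 ± 0.17, adjusted p = 0.00133). Atp4a, a proton pump subunit, was at 6.68 and 6.47 against 0.573 and 0.635 (log2 change -2.24 ± 0.24, adjusted p = 0.00188), and Rhbg, an ammonia channel, at 10.4 and 10.8 against 1.89 and 1.67 (log2 change -2.06 ± 0.18, adjusted p = 0.00101). The receptor Insrr, a sensor of alkali, was at 9.92 and 7.26 against 1.39 and 1.35 (log2 change -2.0 ± 0.23, adjusted p = 0.00214). The transcription factor Hmx2 (-1.73 ± 0.22, adjusted p = 0.0034) and the exchanger Slc4a9 (-1.44 ± 0.19, adjusted p = 0.00389) fell in every fit. Slc4a1, the exchanger of the acid-secreting type, was at 6.83 and 5.73 against 1.27 and 4.04 (log2 change -1.1 ± 0.33, adjusted p = 0.0711, not called). Of 21 thin limb and inner medulla genes 4 rose and 2 fell, and rises numbered 1 to 3 (fewest without control replicate 2) and falls 0 to 1 (fewest without control replicate 1 or control replicate 2 or knockout replicate 1) without 1 library. Among the falls was the water channel Aqp1, at 95.7 and 126 against 33.8 and 41.2 (log2 change -1.53 ± 0.37, adjusted p = 0.0336, held in 0 of 4).

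Glomerular and endothelial genes were lower in part. Of 24 podocyte genes 9 fell and 1 rose (median -0.46), with 5 to 8 (fewest without control replicate 1 or control replicate 2) falls without 1 library. Nphs1, nephrin of the slit diaphragm, was at 12 and 13.1 in the controls and 3.06 and 4.13 in the knockouts (log2 change -1.57 ± 0.19, adjusted p = 0.00278). The phosphatase Ptpro (-1.23 ± 0.15, adjusted p = 0.00295), the sialomucin Podxl (-1.17 ± 0.17, adjusted p = 0.00522, held in 3 of 4) and the scaffold Magi2 (-1.25 ± 0.19, adjusted p = 0.0058, held in 3 of 4) fell by similar amounts. KSP/Cre is known to act in tubule cells and not in podocytes. Of 35 endothelial genes 8 fell and 2 rose (median -0.55). Plvap, of fenestrated capillaries, was at 44.2 and 34.6 in the controls and 14 and 13 in the knockouts (log2 change -1.47 ± 0.32, adjusted p = 0.0234, held in 0 of 4). Prox1, a lymphatic regulator also used by the distal nephron, was at 13.7 and 6.67 against 1.28 and 2.58 (log2 change -1.89 ± 0.33, adjusted p = 0.00969, held in 2 of 4). These calls were fragile, with 0 to 2 (fewest without control replicate 1 or knockout replicate 1) falls without 1 library.

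**Figure D4:**
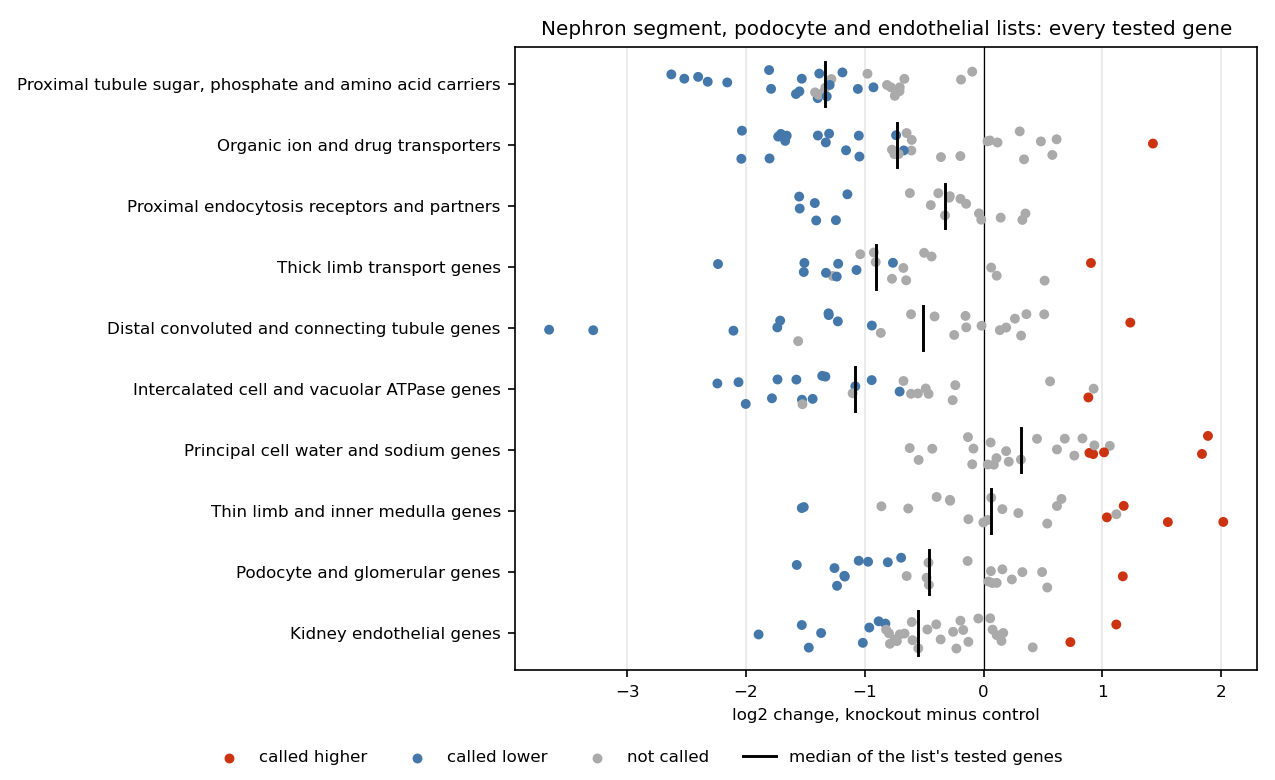
Each point is a tested gene of a list, placed by its log2 change (knockout minus control); red and blue mark genes called higher and lower, grey those not called, and the black bar the list median. Carriers of the proximal tubule and intercalated cell genes lie mostly left of 0 (medians -1.33 and -1.08), while principal cell genes lie around 0.31.

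Metabolic genes of the proximal tubule were lower in part, among them enzymes that break down amino acids. Of 43 such enzymes 21 fell and 2 rose (median -0.84). Acy1, an aminoacylase, was at 29.8 and 24.7 in the controls and 6.11 and 5.57 in the knockouts (log2 change -2.04 ± 0.32, adjusted p = 0.00664, held in 2 of 4). Hgd, of tyrosine breakdown, was at 34.9 and 35.1 against 8.67 and 14.1 (log2 change -1.58 ± 0.27, adjusted p = 0.00888, held in 1 of 4). Aldh4a1, of proline breakdown, was at 91.2 and 104 against 31 and 28.4, close within each group, though its call was lost in all 4 smaller fits (log2 change -1.68 ± 0.30, adjusted p = 0.011, held in 0 of 4). The list's falls numbered 1 to 11 (fewest without control replicate 1 or control replicate 2) without 1 library. Of 24 inositol, carnitine and creatine genes 12 fell and 1 rose (median -0.78). Agxt2, which clears methylarginines, was at 37.9 and 44.6 in the controls and 5.28 and 9.8 in the knockouts (log2 change -2.35 ± 0.35, adjusted p = 0.0055, held in 3 of 4). Gatm, the first step of creatine synthesis, was at 134 and 144 against 33.3 and 38.7 (log2 change -1.92 ± 0.30, adjusted p = 0.00648, held in 2 of 4). Falls here numbered 1 to 8 (fewest without control replicate 1) in the smaller fits.

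Of 23 genes of gluconeogenesis, fructose and glycogen 6 fell and 1 rose (median -1.1). Khk, fructokinase, was at 61.2 and 47.4 in the controls and 12.6 and 23 in the knockouts (log2 change -1.61 ± 0.33, adjusted p = 0.0191, held in 1 of 4). The rate-setting Pck1 was at 809 and 916 against 72.1 and 351 and was not called, with knockout replicate 1 far below replicate 2 (log2 change -2.42 ± 0.67, adjusted p = 0.0522, not called). G6pc (-1.68 ± 0.57, adjusted p = 0.0985, not called) and Fbp1 (-1.58 ± 0.52, adjusted p = 0.0899, not called) showed the same spread. Aldh1a1, an enzyme that makes retinoic acid and was also placed in this list, was the gene that rose, at 1.19 and 1.36 in the controls and 7.38 and 9.67 in the knockouts (log2 change 2.06 ± 0.19, adjusted p = 0.00104). For 48 fatty acid oxidation and peroxisome genes 9 fell and 39 were not called (median -0.56). Acsm1 was at 29.7 and 25.5 in the controls and 5.38 and 7.79 in the knockouts (log2 change -1.93 ± 0.22, adjusted p = 0.00226). Of 48 nuclear genes for respiratory chain subunits 3 fell, Atp5d (-1.1 ± 0.26, adjusted p = 0.0323, held in 0 of 4), Ndufs8 (-0.68 ± 0.17, adjusted p = 0.0368, held in 0 of 4) and Uqcrc1 (-0.72 ± 0.19, adjusted p = 0.042, held in 0 of 4), while the median of the list was -0.55. The share that fell, 6.25%, was near the 5.48% of all tested genes. Both knockouts were nevertheless below both controls in 37 of the 48, against 29.2% of all tested genes. DESeq2 called 12 of these genes lower and edgeR 3. Among glutathione transferases 5 of 20 fell, with Gsta2 at 48.9 and 62.8 against 3.7 and 17.3 (log2 change -2.6 ± 0.51, adjusted p = 0.0162, held in 2 of 4), a gene with close paralogs that reads may not tell apart. Falls without 1 library numbered 1 to 8 (fewest without control replicate 1), 1 to 8 (fewest without control replicate 1 or control replicate 2 or knockout replicate 1), 0 in each fit and 0 to 4 (fewest without control replicate 1 or control replicate 2) in these lists.

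Hypoxia and glycolysis genes were mostly not called. Of 38 tested 1 rose, the phosphofructokinase Pfkp, at 37.7 and 28.2 in the controls and 60.2 and 92.7 in the knockouts (log2 change 1.17 ± 0.26, adjusted p = 0.0244, held in 1 of 4), and 1 fell, Ldhd (-0.94 ± 0.22, adjusted p = 0.0317, held in 1 of 4), and rises numbered 0 to 1 (fewest without control replicate 1 or control replicate 2 or knockout replicate 2) and falls 0 to 4 (fewest without control replicate 1 or control replicate 2 or knockout replicate 1) without 1 library. The lactate carrier Slc16a3 was at 4.64 and 2.75 against 11.4 and 34 (log2 change 2.18 ± 0.67, adjusted p = 0.075, not called). Hexokinase Hk2 was at 2.26 and 1.29 against 8.25 and 7.26 (log2 change 1.68 ± 0.53, adjusted p = 0.0817, not called). In both genes the knockouts were above the controls, with SEs above 0.5. For cytochrome P450 and glucuronidation genes 4 of 35 rose and 2 fell, the epoxygenase Cyp2j5 (-1.32 ± 0.20, adjusted p = 0.00615, held in 3 of 4) and Cyp2s1 (-1.42 ± 0.21, adjusted p = 0.00575, held in 2 of 4). This balance turned with the processing: DESeq2 gave 4 rises and 10 falls, and without knockout replicate 2 there were 1 rise and 5 falls. Over the fits without 1 library rises numbered 0 to 3 (fewest without control replicate 1 or control replicate 2) and falls 0 to 5 (fewest without control replicate 2). Ugt8a, which makes galactolipids, was at 9.86 and 10.1 in the controls and 39.7 and 30.2 in the knockouts (log2 change 1.7 ± 0.27, adjusted p = 0.00655, held in 2 of 4). Among retinoic acid and vitamin D genes 4 of 24 fell (1 to 3 (fewest without control replicate 1 or control replicate 2) without 1 library) and 1 rose, Aldh1a1, whose values stand above. Of the falls, the retinol receptor Stra6 was at 5.82 and 9.12 against 1.79 and 1.21 (log2 change -1.74 ± 0.32, adjusted p = 0.0127, held in 1 of 4) and the vitamin D receptor Vdr at 25.8 and 19.3 against 10.7 and 13.1 (log2 change -0.86 ± 0.23, adjusted p = 0.046, held in 0 of 4). Among thyroid and glucocorticoid genes the activating deiodinase pair split: Dio1 fell, at 14.2 and 9.05 against 3.42 and 0.995 (log2 change -2.06 ± 0.35, adjusted p = 0.0086, held in 3 of 4). Dio2 rose, at 1.17 and 1.42 against 5.99 and 7.45 (log2 change 1.74 ± 0.39, adjusted p = 0.0254, held in 0 of 4). The glucocorticoid-responsive Fkbp5 was at 9.69 and 12.8 against 27.6 and 37.5 (log2 change 1.45 ± 0.21, adjusted p = 0.00497, held in 3 of 4).

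Some genes of simple and damaged epithelium rose. Of 28 keratins, mucins and secreted epithelial proteins 15 rose, 1 fell and 12 were not called, with a median of 1.03, and 9 to 12 (fewest without control replicate 1 or control replicate 2 or knockout replicate 1) rose without 1 library. Krt18, a keratin of simple epithelia, was at 17.4 and 18 in the controls and 107 and 109.5 in the knockouts (log2 change 2.55 ± 0.23, adjusted p = 0.00101). Krt19 was at 8.75 and 5.6 against 52.3 and 61.4 (log2 change 2.85 ± 0.35, adjusted p = 0.00283). Lgals3, a galectin of collecting duct and macrophages, was at 25.8 and 22 in the controls and 132 and 141 in the knockouts (log2 change 2.47 ± 0.20, adjusted p = 0.000695). Muc1, a membrane mucin of the distal nephron, was at 11 and 8.02 against 37.7 and 45.1 (log2 change 2.02 ± 0.21, adjusted p = 0.00159). Mal2, of apical membrane traffic, was at 15.3 and 18.7 against 127 and 193 (log2 change 3.14 ± 0.34, adjusted p = 0.00191). In each of these genes the lower knockout was at least 3 times the higher control. Havcr1, the injury marker KIM-1, was at 0.123 and 0.306 against 1.37 and 1.31 and was not called (log2 change 0.95 ± 0.42, adjusted p = 0.186, not called). Krt19 and Upk3b are also markers of mesothelium. Of 8 tested mesothelium markers 4 rose and 1 fell, with Msln at 1.27 and 0.765 against 8.18 and 13.2, and the list summed to 278, 224, 191 and 260. Of 12 urothelium markers 2 rose, with a sum of 32.8, 24.9, 54.1 and 45.9. The part of those cell types in the keratin rises was not tested.

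Genes of calcium-binding and junction proteins rose in part. Of 21 S100 and annexin genes 11 rose and 10 were not called (median 0.67), with 3 to 7 (fewest without control replicate 1) rises without 1 library. S100a6 was at 23.2 and 36.9 in the controls and 279 and 149.6 in the knockouts (log2 change 2.76 ± 0.39, adjusted p = 0.00453, held in 3 of 4). S100a14 was at 1.76 and 2.62 against 41.5 and 21.1 (log2 change 3.27 ± 0.40, adjusted p = 0.00283), with knockout replicate 1 about 2 times replicate 2 in both. Anxa1, an annexin that restrains inflammation, was at 8.96 and 9.73 against 40.3 and 30.5 (log2 change 1.8 ± 0.18, adjusted p = 0.00159). Anxa3 was at 19.9 and 21.7 against 59.8 and 53.1 (log2 change 1.4 ± 0.16, adjusted p = 0.00235). Among 14 claudins of the tight junction 4 rose, and 1 to 3 (fewest without control replicate 2) did without 1 library. Cldn4, of the collecting duct, was at 9.3 and 8.11 in the controls and 42.6 and 34.2 in the knockouts (log2 change 2.02 ± 0.26, adjusted p = 0.00316). Cldn3 was at 2.98 and 2.32 against 7.66 and 6.81 (log2 change 1.18 ± 0.17, adjusted p = 0.0054, held in 3 of 4). Cldn10, of the thick limb, was at 53 and 63.5 against 25.7 and 21.5 (log2 change -1.27 ± 0.35, adjusted p = 0.0517, not called). Cdh3, P-cadherin, led 5 rises among 32 cadherin and polarity genes, at 8.82 and 5.93 in the controls and 29.7 and 34.8 in the knockouts (log2 change 2.01 ± 0.28, adjusted p = 0.00453), and N-cadherin, Cdh2, of the proximal tubule, fell (-0.82 ± 0.16, adjusted p = 0.0163, held in 0 of 4). The rises of this list numbered 1 to 2 (fewest without control replicate 1 or control replicate 2) and its falls 0 in each fit without 1 library. Among 33 genes of polycystic and related ciliary disease 1 was called, Umod. Bicc1, an RNA-binding protein of that list, was at 187 and 154 against 231 and 283 (log2 change 0.59 ± 0.21, adjusted p = 0.109, not called).

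Matrix genes rose selectively, and a few fell. Of 31 collagens 8 rose and 4 fell (median 0.23). After Col12a1 came Col8a1, of basement membranes, at 2.45 and 2.73 in the controls and 14 and 12.8 in the knockouts (log2 change 2.0 ± 0.17, adjusted p = 0.000741). Col11a1, a fibril nucleator, was at 6.33 and 4.96 against 21.1 and 25.6 (log2 change 1.88 ± 0.18, adjusted p = 0.00142). Col7a1, of anchoring fibrils, was at 8.59 and 4.5 against 23.5 and 23.6 (log2 change 1.76 ± 0.25, adjusted p = 0.00497). The abundant fibril collagen Col1a1 was at 173 and 100.3 against 351 and 212 (log2 change 1.05 ± 0.34, adjusted p = 0.089, not called). Its partner Col3a1 was at 571 and 353 against 857 and 704 (log2 change 0.79 ± 0.29, adjusted p = 0.118, not called). In both the knockouts were above the controls, and neither passed. Col6a5 was at 4.36 and 4.39 in the controls and 0.156 and 0.275 in the knockouts (log2 change -2.15 ± 0.22, adjusted p = 0.00159), the deepest fall of the list. Of 30 laminin, integrin and nidogen genes 6 rose and 2 fell. The chains Lama3 (1.34 ± 0.27, adjusted p = 0.0185, held in 0 of 4) and Lamb3 (2.48 ± 0.39, adjusted p = 0.00663, held in 3 of 4) rose, while Lamc3 (-2.11 ± 0.31, adjusted p = 0.00514) and Lama1 (-1.27 ± 0.23, adjusted p = 0.0105, held in 2 of 4) fell. Lamb3 was at 5.32 and 2.16 against 19.8 and 29.1. Rises numbered 4 to 5 (fewest without control replicate 2 or knockout replicate 1) for collagens and 0 to 3 (fewest without control replicate 2) for laminins without 1 library.

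Of 43 other matrix genes 10 rose and 2 fell (median 0.52), with 4 to 9 (fewest without control replicate 2) rises in the smaller fits. Postn, periostin, was at 142 and 107 in the controls and 564 and 499 in the knockouts (log2 change 2.1 ± 0.20, adjusted p = 0.0011). Lox, which crosslinks collagen, was at 17.8 and 19.7 against 68.1 and 92.9 (log2 change 2.03 ± 0.23, adjusted p = 0.00223). Sulf1, which trims heparan sulfate, was at 9.91 and 7.17 against 78.5 and 66 (log2 change 2.95 ± 0.30, adjusted p = 0.00159). Egfl6, a ligand of integrins, was the opposite, at 16.1 and 13.5 against 1.41 and 3.15 (log2 change -2.32 ± 0.26, adjusted p = 0.00202). Among 33 proteases and their inhibitors 6 rose (2 to 3 (fewest without control replicate 1 or control replicate 2) without 1 library) and 6 fell (2 to 4 (fewest without control replicate 1) without 1 library). Timp1, an inhibitor of metalloproteases, was below 1 in both controls and at 6.03 and 4.70 in the knockouts (log2 change 1.76 ± 0.27, adjusted p = 0.00614, held in 2 of 4). Ctss, a cathepsin of myeloid cells, was at 3.11 and 2.58 against 15.1 and 12 (log2 change 1.91 ± 0.23, adjusted p = 0.00278). The brush border meprin Mep1b (-1.88 ± 0.23, adjusted p = 0.0027) and the membrane protease Mmp16 (-1.68 ± 0.18, adjusted p = 0.00185) fell in every fit.

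Some contractile genes of myofibroblasts and smooth muscle rose. Of 33 tested 12 rose and 21 were not called (median 0.61), and 6 to 10 (fewest without control replicate 2) rose without 1 library. Acta2, alpha smooth muscle actin, was at 85 and 70.9 in the controls and 302 and 365 in the knockouts (log2 change 2.08 ± 0.21, adjusted p = 0.00144). Tagln was at 26.9 and 28.7 against 174 and 140.4 (log2 change 2.45 ± 0.25, adjusted p = 0.00159). Cnn1, calponin of differentiated smooth muscle, was at 1.66 and 1.16 in the controls and 17.2 and 18.4 in the knockouts (log2 change 2.97 ± 0.19, adjusted p = 0.000365). Pdpn, podoplanin, which podocytes also make, was at 8.83 and 8.2 against 42.5 and 32 (log2 change 1.99 ± 0.18, adjusted p = 0.00104). Myl9, a myosin light chain, was at 83.5 and 68.9 against 135 and 129 (log2 change 0.79 ± 0.23, adjusted p = 0.0626, not called), a smaller difference than that of the actins.

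Some clotting and fibrinolysis genes rose. Of 34 tested 11 rose, 1 fell and 22 were not called (median 0.28), with 7 to 10 (fewest without control replicate 2) rises without 1 library. F3, tissue factor, which starts coagulation, was at 6.04 and 5.42 in the controls and 30.2 and 33.6 in the knockouts (log2 change 2.29 ± 0.17, adjusted p = 0.000476). F13a1, which crosslinks fibrin and is made by macrophages, was at 2.56 and 1.95 against 17.1 and 30.3 (log2 change 2.88 ± 0.25, adjusted p = 0.00101). F2rl1, a receptor cut by proteases, was at 7.91 and 7.89 against 28.4 and 23.6 (log2 change 1.59 ± 0.19, adjusted p = 0.00278). These 3 genes held in every fit. Serpina6, a serpin that carries glucocorticoids, was at 227 and 208 against 39.9 and 119 and was not called (log2 change -1.64 ± 0.62, adjusted p = 0.13, not called).

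Macrophage genes had the highest share of rises of any list. Of 29 tested 19 rose and 10 were not called (median 1.17), and 7 to 15 (fewest without control replicate 2) rose without 1 library. Mrc1, the mannose receptor, was at 7.51 and 6.93 in the controls and 30.9 and 33.8 in the knockouts (log2 change 2.02 ± 0.19, adjusted p = 0.0011). Lyz2, lysozyme, was at 4.07 and 3.96 against 18.8 and 15 (log2 change 1.83 ± 0.19, adjusted p = 0.00159). Cd14, a receptor for bacterial lipopolysaccharide, was at 0.779 and 0.503 against 3.21 and 3.68 (log2 change 1.44 ± 0.19, adjusted p = 0.00389). In the Pkd1 kidneys Cd14 reached the filter value of 1 only in the knockouts. Of 35 macrophage genes listed 29 were tested, so their share and median do not describe the whole list. The growth factors Csf1 (1.33 ± 0.31, adjusted p = 0.0292, held in 0 of 4) and Il34 (1.17 ± 0.19, adjusted p = 0.00664, held in 1 of 4), which feed macrophages through the receptor Csf1r (0.92 ± 0.17, adjusted p = 0.0122, held in 1 of 4), rose as well. Aif1 was at 1.47 and 1.88 against 7.66 and 1.86 and Cd163 at 1.0 and 0.59 against 1.61 and 7.32, each with only 1 high knockout, and neither was called. Lymphocyte markers were low, with 13 of 16 below 1 in all 4 libraries and sums of 6.50, 6.23, 9.92 and 7.05. Neutrophil markers summed to 3.37, 2.76, 5.73 and 7.89, and S100a8 (0.87 ± 0.21, adjusted p = 0.0359, held in 0 of 4) and S100a9 (1.09 ± 0.29, adjusted p = 0.0496, held in 0 of 4) were the called members.

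Among 21 chemokine genes 9 rose (median 0.88), with 3 to 7 (fewest without control replicate 2) rises without 1 library. Cxcl16, a membrane-bound chemokine, was at 10.6 and 11.8 in the controls and 27.6 and 26.8 in the knockouts (log2 change 1.21 ± 0.16, adjusted p = 0.00353). Ccl12 was at 0.164 and 0.241 against 3.09 and 1.82 (log2 change 1.5 ± 0.20, adjusted p = 0.00401). The receptor Ccr1 was at 0.689 and 0.612 against 3.96 and 4.72 (log2 change 1.69 ± 0.23, adjusted p = 0.00422). In the Pkd1 kidneys Ccl12 and Ccr1 reached the filter value of 1 only in the knockouts. Of 43 chemokine genes listed only 21 were tested, so their share and median do not describe the whole family. Of 27 complement genes 8 rose and 1 fell (median 0.36), with 5 to 7 (fewest without control replicate 2) rises without 1 library. The 3 chains of C1q rose in every fit, with C1qa at 2.94 and 2.67 against 11 and 9.99 (log2 change 1.59 ± 0.16, adjusted p = 0.00159), C1qb at 2.51 and 3.06 against 10.00 and 9.84 (log2 change 1.53 ± 0.17, adjusted p = 0.00185) and C1qc at 4.64 and 3.72 against 11 and 11.9 (log2 change 1.27 ± 0.18, adjusted p = 0.00453). C5ar1 was at 1.07 and 0.962 against 4.98 and 4.11 (log2 change 1.46 ± 0.18, adjusted p = 0.00315). Of 38 interferon response and antigen presentation genes 2 rose and 1 fell, a share near that of all tested genes. Rsad2, viperin, was at 29.9 and 30.9 in the controls and 9.43 and 8.8 in the knockouts (log2 change -1.63 ± 0.17, adjusted p = 0.00159). The antigen presentation gene Cd74 was at 9.81 and 7.61 against 17 and 13 (log2 change 0.72 ± 0.25, adjusted p = 0.108, not called).

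**Figure D5:**
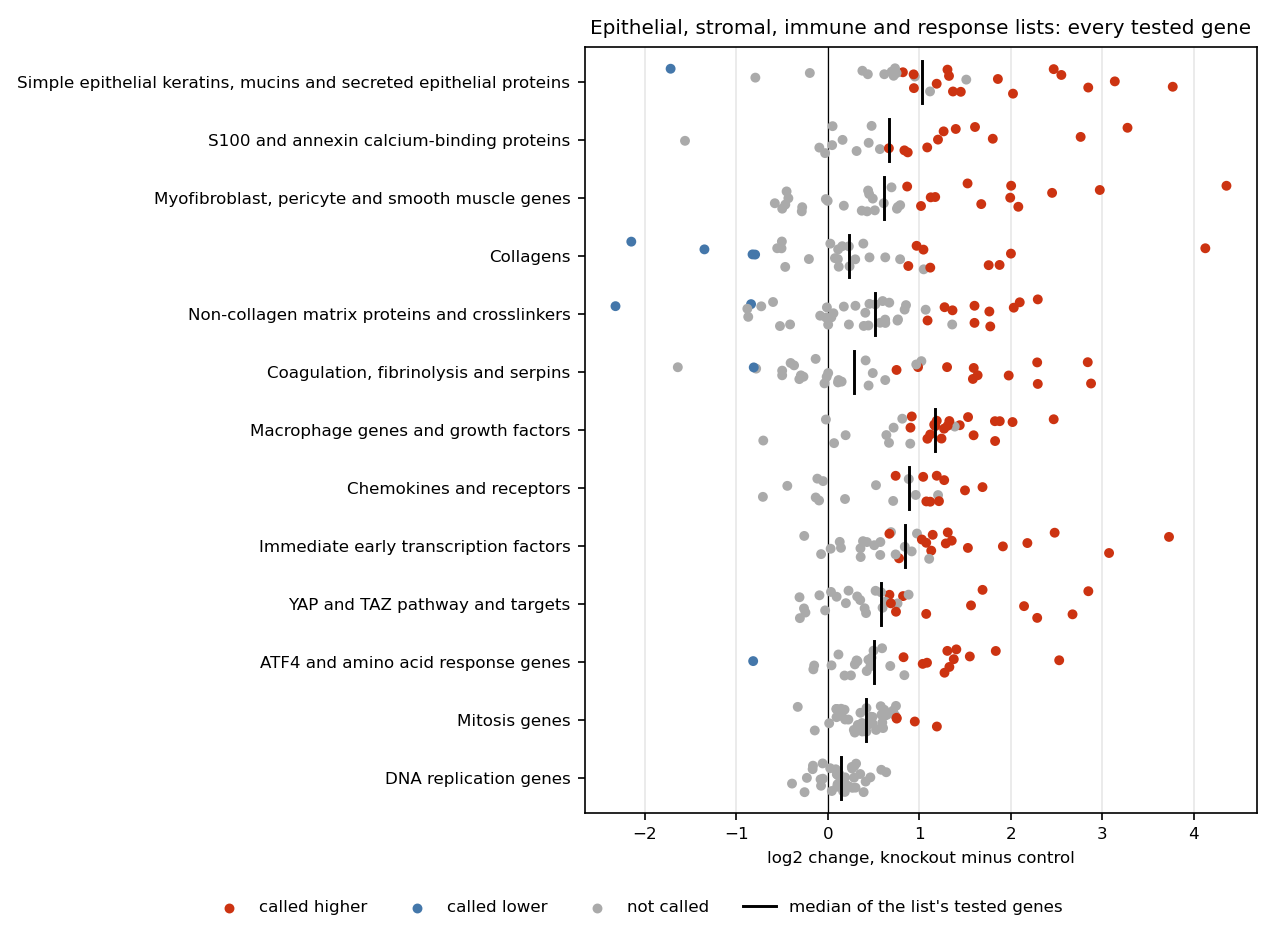
Each point is a tested gene of a list, placed by its log2 change (knockout minus control); red and blue mark genes called higher and lower, grey those not called, and the black bar the list median. Macrophage genes and keratins have medians of 1.17 and 1.03, while DNA replication genes lie around 0.14 with no colored point.

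Among developmental regulators of the kidney more genes fell than rose. Of 46 transcription factors 11 fell and 2 rose (median -0.39), with 0 to 5 (fewest without control replicate 1 or control replicate 2 or knockout replicate 1) falls without 1 library. Hnf4a, the regulator of proximal tubule identity, was at 149 and 146 in the controls and 51.1 and 73.4 in the knockouts (log2 change -1.25 ± 0.27, adjusted p = 0.0228, held in 1 of 4). Emx1 (-1.54 ± 0.33, adjusted p = 0.022, held in 0 of 4), Esrrg (-0.88 ± 0.17, adjusted p = 0.0162, held in 1 of 4) and the Iroquois factor Irx5 (-0.81 ± 0.16, adjusted p = 0.0154, held in 0 of 4) fell too. Elf3, an epithelial transcription factor, was at 8.28 and 6.21 in the controls and 27.5 and 41.6 in the knockouts (log2 change 2.09 ± 0.33, adjusted p = 0.00659, held in 3 of 4). Among 28 imprinted and fetal genes 3 rose and 3 fell, and rises numbered 1 to 2 (fewest without control replicate 1 or control replicate 2 or knockout replicate 1) and falls 2 to 3 (fewest without control replicate 1 or control replicate 2) without 1 library. Slc38a4, a paternally expressed amino acid carrier, was at 5.54 and 5.68 in the controls and 28.5 and 30.01 in the knockouts (log2 change 2.19 ± 0.17, adjusted p = 0.000476), against the falls of Cdkn1c and Igf2. Afp, alpha-fetoprotein, was at 14.6 and 19.96 against 3.68 and 5.61 (log2 change -1.7 ± 0.23, adjusted p = 0.00392), a gene that is also a liver marker.

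Some immediate early transcription factors, which cells switch on within minutes of a stimulus, rose. Of 33 tested 15 rose and 18 were not called (median 0.84), and both knockouts were above both controls in 29 of 33, against 29.1% of all genes. Without 1 library 5 to 11 (fewest without control replicate 2) rose. Fos was below 1 in both controls and at 27.6 and 13.1 in the knockouts (log2 change 3.73 ± 0.37, adjusted p = 0.00159). Egr2 was at 0.549 and 0.656 against 17 and 9.08 (log2 change 3.07 ± 0.28, adjusted p = 0.00104). Klf6 was at 13.2 and 15.3 in the controls and 54.2 and 58.5 in the knockouts (log2 change 1.91 ± 0.23, adjusted p = 0.00278). Maff was at 1.15 and 1.05 against 8.35 and 8.68 (log2 change 2.18 ± 0.20, adjusted p = 0.0011). Egr1 was at 5.5 and 3.63 against 43.4 and 20.02 (log2 change 2.48 ± 0.37, adjusted p = 0.0057, held in 3 of 4), and like Fos and Egr2 it was about 2 times as high in knockout replicate 1 as in replicate 2. Junb (1.11 ± 0.34, adjusted p = 0.0705, not called) and Dusp1 (0.97 ± 0.27, adjusted p = 0.053, not called) did not pass.

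Serum response factor binds a CArG box, which many genes of this list are known to carry. In the 250 bases before a start site (RefSeq, GRCm38.p6), searched on both strands, a CArG box stood in 7 of 35 windows of the list (20%), against 1.18% of the windows of tested genes. Of those 7 windows, 4 belong to Egr2, which has several annotated starts. Counted by gene, the box stood in 1 of 11 members that rose, Egr2, and in 3 of 15 that were not called. Its boxes are printed with 12 bases on each side, 5′ to 3′ on the strand of the gene, with the box in capitals, since among the genes of the list named here only Fos rose further than Egr2. The first lies at chr10:67537482-67537515 and the other at chr10:67537785-67537818, both on the plus strand.
Egr2 upstream box: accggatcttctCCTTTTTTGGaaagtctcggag
Egr2 downstream box: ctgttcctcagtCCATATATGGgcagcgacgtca
A match is only a description of these letters and shows no binding.

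Some targets of YAP and TAZ, co-activators that enter the nucleus when cells spread or stretch, rose. Of 31 genes of the pathway 11 rose and 20 were not called (median 0.58), with 6 to 7 (fewest without control replicate 2) rises without 1 library. Ctgf was at 23.2 and 21.2 in the controls and 133 and 163 in the knockouts (log2 change 2.67 ± 0.20, adjusted p = 0.000476). Cyr61 was at 6.78 and 6.45 against 34.4 and 31 (log2 change 2.14 ± 0.31, adjusted p = 0.00496). Ankrd1, nearly silent in the controls, was at 11.6 and 5.93 in the knockouts (log2 change 2.85 ± 0.30, adjusted p = 0.00185). Vgll3, a cofactor that binds the same partner, was at 0.96 and 0.678 against 4.86 and 4.85 (log2 change 1.69 ± 0.17, adjusted p = 0.00159). The DNA-binding partner Tead1 was at 76.2 and 63.4 against 119 and 98.1 (log2 change 0.63 ± 0.19, adjusted p = 0.0728, not called).

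YAP and TAZ act through TEAD factors, whose core letters are GGAATG. This motif stood in 16 of 29 windows of the list (55.2%), counted on both strands, against 10.9% of windows of tested genes, and the list was made of known targets. It stood in 6 of 8 windows of members that rose and in 10 of 21 of members that were not called. The stretches of 6 members are printed 5′ to 3′ on the strand of the gene, with the motif, or its reverse complement, in capitals. They lie at chr19:36119950-36120066 (Ankrd1, minus strand), chr3:145650071-145650100 (Cyr61, minus), chr16:65815114-65815143 (Vgll3, plus), chr9:102717727-102717756 (Amotl2, plus), chr14:54577808-54577859 (Ajuba, minus) and chr17:78200157-78200186 (Crim1, plus).
Ankrd1: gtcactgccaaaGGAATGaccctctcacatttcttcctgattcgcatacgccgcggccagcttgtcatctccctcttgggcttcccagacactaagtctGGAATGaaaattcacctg
Cyr61: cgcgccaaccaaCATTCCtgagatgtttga
Vgll3: cccgcctccccaCATTCCggctaccctgcc
Amotl2: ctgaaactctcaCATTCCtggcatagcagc
Ajuba: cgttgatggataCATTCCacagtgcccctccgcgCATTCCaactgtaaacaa
Crim1: agggcgggggggGGAATGaggtaggatggg
Ankrd1 and Ajuba hold the motif at 2 places each. Beside the targets above, Amotl2 was at 123 and 99.4 against 230.0 and 238 (1.08 ± 0.18, adjusted p = 0.00931, held in 2 of 4), Ajuba at 13.4 and 11.3 against 22.3 and 22.9 (0.82 ± 0.16, adjusted p = 0.0155, held in 0 of 4) and Crim1 at 18.8 and 18.2 against 28.5 and 31.7 (0.67 ± 0.16, adjusted p = 0.0311, held in 0 of 4); these 3 were chosen for the motif after their values were seen.

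Some genes that respond to amino acid shortage through ATF4 rose. Of 29 tested 11 rose, 1 fell and 17 were not called (median 0.50), with 4 to 7 (fewest without control replicate 1) rises without 1 library. Asns, asparagine synthetase, was at 2.35 and 2.78 in the controls and 17.3 and 22 in the knockouts (log2 change 2.53 ± 0.21, adjusted p = 0.000728). The carriers of cationic and large amino acids Slc7a1, at 9.75 and 7.74 against 33.3 and 33.9 (log2 change 1.84 ± 0.24, adjusted p = 0.00374), Slc7a5 (1.55 ± 0.21, adjusted p = 0.00423) and Slc7a3 (1.38 ± 0.16, adjusted p = 0.00237) rose in every fit. Mthfd2, of mitochondrial folate metabolism, was at 1.57 and 1.86 against 5.66 and 5.76 (log2 change 1.31 ± 0.20, adjusted p = 0.00608, held in 3 of 4). Trib3, a further target, was at 0.172 and 0.131 against 0.643 and 1.08 and was not called (log2 change 0.68 ± 0.23, adjusted p = 0.093, not called). ER chaperones of the wider unfolded protein response gave 0 calls of 25 with limma, DESeq2 and edgeR alike, and 2 at an unadjusted p below 0.05, both higher. The ATF4 list was made of known ATF4 and amino acid response genes, so its share of the ATF4 motif is no independent support. The CARE motif of ATF4, TGATGNAA, stood on either strand in 5 of 28 windows of the ATF4 list (17.9%), against 1.94% of windows of tested genes. It stood in 2 of 9 windows of members that rose and in 3 of 18 of members that were not called. Those of Asns (chr6:7693213-7693244, minus strand) and Nupr1 (chr7:126625561-126625592, minus strand) are printed the same way, the 2 matches in members that rose.
Asns: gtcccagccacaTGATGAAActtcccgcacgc
Nupr1: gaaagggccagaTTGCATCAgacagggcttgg
Nupr1 itself was at 16.8 and 15.7 against 35.7 and 35.4 (1.08 ± 0.29, adjusted p = 0.0457, held in 0 of 4) and was chosen for its motif after its values were seen.

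Some cell death genes rose, while no DNA replication gene was called. Of 37 p53 targets and cell death genes 8 rose and 29 were not called (median 0.42), with 2 to 6 (fewest without control replicate 1 or control replicate 2 or knockout replicate 1) rises without 1 library. Pmaip1, the death gene NOXA, was at 0.746 and 1.42 in the controls and 7.57 and 5.95 in the knockouts (log2 change 1.91 ± 0.22, adjusted p = 0.00237). Eda2r was at 0.459 and 0.547 against 4.62 and 3.2 (log2 change 1.69 ± 0.28, adjusted p = 0.0084, held in 1 of 4). Of 41 mitosis genes 4 rose, Anln (1.19 ± 0.27, adjusted p = 0.0267, held in 0 of 4), Ccnb1 (0.75 ± 0.17, adjusted p = 0.0292, held in 0 of 4), Tpx2 (0.75 ± 0.19, adjusted p = 0.0422, held in 0 of 4) and Kif23 (0.95 ± 0.25, adjusted p = 0.0474, held in 0 of 4), and none of these calls held in a smaller fit. The share called, 9.76%, was near the 10.6% of all tested genes. Both knockouts were above both controls in 27 of the 41, against 29.1% of all tested genes, and the median was 0.42. DNA replication genes gave 0 calls of 40 with limma, DESeq2 and edgeR alike, and 2 at an unadjusted p below 0.05. Among 29 genes of cell cycle entry and its inhibitors, Cdkn2b rose, at 0.451 and 0.241 against 2.22 and 1.46 (log2 change 1.07 ± 0.18, adjusted p = 0.0093, held in 1 of 4), and Cdkn1c fell. Myc was at 21.5 and 15.4 against 29.3 and 42.4 and missed the threshold (log2 change 0.92 ± 0.26, adjusted p = 0.0598, not called).

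Channel genes gave a few strong changes. Among 18 mechanosensitive and TRP channels 4 rose: Mcoln3, a lysosomal channel, was at 5.45 and 5.73 in the controls and 29.2 and 44.3 in the knockouts (log2 change 2.49 ± 0.24, adjusted p = 0.00125). Trpv6, a calcium channel, was at 1.89 and 1.73 against 6.16 and 8.23 (log2 change 1.54 ± 0.21, adjusted p = 0.00449). The others were Trpv5, whose values stand above, and Trpv2, whose call did not hold in all 4 fits. Of 28 chloride channel and fluid secretion genes 6 fell (0 to 3 (fewest without control replicate 1 or control replicate 2 or knockout replicate 1) without 1 library) and 2 rose (0 to 1 (fewest without control replicate 1 or control replicate 2 or knockout replicate 1) without 1 library). Slc12a2, NKCC1 of secreting cells, was at 15 and 19.5 against 26.1 and 26.7 (log2 change 0.60 ± 0.20, adjusted p = 0.1, not called). Kcnab1 rose among 23 potassium channel genes, at 2.74 and 2.43 against 9.19 and 10.8 (log2 change 1.62 ± 0.20, adjusted p = 0.00283), and Kcnk5 fell (-1.04 ± 0.17, adjusted p = 0.00815, held in 1 of 4). Metallothioneins led the antioxidant list, with Mt2 at 4.28 and 5.99 in the controls and 27.2 and 24.3 in the knockouts (log2 change 2.14 ± 0.25, adjusted p = 0.00235) and Mt1 at 16.4 and 21.6 against 45.6 and 48.1 (log2 change 1.27 ± 0.29, adjusted p = 0.0279, held in 0 of 4). In the lysosome list 2 of 34 rose, Ctsc (1.31 ± 0.18, adjusted p = 0.00453) and Ctsd (0.99 ± 0.21, adjusted p = 0.0215, held in 0 of 4), and 2 fell, among them Hexa (-0.87 ± 0.17, adjusted p = 0.0163, held in 0 of 4). The clock genes Hlf (-0.99 ± 0.15, adjusted p = 0.00607, held in 3 of 4) and Per3 (-0.82 ± 0.17, adjusted p = 0.0206, held in 0 of 4) fell, 2 of 19 tested. The shares called in the potassium channel, antioxidant, lysosome and clock lists were 8.70%, 10%, 11.8% and 10.5%, near the 10.6% of all tested genes, and their called genes are given as single genes.

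The effect of Pkd1 loss at day 10 was set against that of Pkd2 loss by Pkhd1/Cre at day 20, in the same fit over 8 libraries. The difference of the effects was called for 1 gene, 0.00683% of those tested, and the models also differ in age and Cre line, which cannot be told apart from the deleted gene. It was Serpina10, an inhibitor of coagulation factors, named after its values were seen. Serpina10 was at 6.7 and 8.24 in the controls and 6.49 and 6.9 in the knockouts in the Pkd1 model (log2 change -0.13 ± 0.19, adjusted p = 0.694, not called), while its log2 change in the Pkd2 model was 2.87 ± 0.19. The difference was -3.00 ± 0.27 (adjusted p = 0.0252). Of the genes named above, none had a difference that passed, which does not show that the effects are equal.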

How the data were processed

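Total RNA was extracted with Trizol and sequenced from TruSeq libraries, per the labels' protocols. Tools in the submitters' processing notes are STAR 2.4.2a, RSEM 1.2.22, Cufflinks 2.2.1, FastQC 0.11.2 and edgeR, with build mm10. Neither their settings nor the annotation and strand of the counting are stated there, which leaves genes with an antisense partner or near-identical copies uncertain. Each kidney value that the authors deposited is a signal, an estimated CPM over a scaling factor of its library, as the values themselves show. The log2 fold changes and p-values deposited by the authors were not used. Low values were whole multiples of the value of 1 read, and 81.3% to 93.6% of values over the 8 kidney libraries came out whole within 0.02 of a read, lowest in Pkd1 control replicate 1, whose reads are the least certain.

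Genes that reached 1 in 2 or more of 8 kidney libraries were fitted by limma 3.58.1 (trend, R 4.3.3) on log2(value + 1), in 1 fit of 4 groups with 4 residual and 4.77 prior degrees of freedom. The design held edgeR's quasi-likelihood test for a table of raw counts, and scaled values do not suit that test as a main test. Alternatives were quantile scaling, mitochondrial genes left out with TMM, no filter, a pseudocount of 0.1, DESeq2 1.42.0 and edgeR 4.0.16 on the recovered reads, the 4 Pkd1 libraries alone, a replicate block, a sex covariate, a 2-fold minimum and each library left out. A crossed block and a covariate for small structural RNA were added after the data were seen. The fit was also run on simulated reads with set changes in some genes of the Pkd1 knockouts. Those reads lacked the differences between libraries in sex-linked, mitochondrial and small structural RNA, and no conclusion is drawn from them.

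Members and gene lists were chosen with earlier results of these data known. Named genes were Pkd1 and Cdh16, the 15 largest rises and falls (called, mean value at least 5, groups not overlapping, without predicted genes, pseudogenes and small RNAs), and from each list up to 6 called members with the smallest adjusted p and up to 3 others with the largest change; not all of them are printed, and some are not reported here. Xist, Msln, Csf1, Csf1r and Il34 were named outside this rule after their values were seen. Start sites are from RefSeq (GRCm38.p6), which had windows for 10208 of the tested genes.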

Additional observations from a re-analysis of the deposited data

How the results depend on the processing

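Against 1550 calls, split into 748 genes called higher and 802 genes called lower, the count was within 1.5 times under quantile scaling (1588), mitochondrial genes left out (1586), a pseudocount of 0.1 (1520), DESeq2 (2203), edgeR (1534), the 4 Pkd1 libraries alone (1736) and the sex covariate (1617), DESeq2 with 98.1% and edgeR with 92.5% of the calls among theirs. Without a filter 790 genes were called (395 higher and 395 lower), and a 2-fold minimum left 904 (451 and 453). Leaving out 1 library left 332 to 809 calls, 181 to 388 higher and 112 to 421 lower, fewest in all without control replicate 1, where a group of 1 library is assumed to vary like the others. With the small structural RNA covariate 2689 were called (1262 and 1427), among them all 1550, and the cause was not tested for any of these. Of the 525 named genes tested, 311 were called, 114 of them in all 4 smaller fits, and none reversed direction where it was called.

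The replicate numbers alone do not show whether libraries of the 2 groups were paired. The deviations of same-numbered libraries correlated at -0.378 across genes, so control replicate 1 deviated more like knockout replicate 2. With 2 libraries in a group this value cannot decide on a pairing. With the replicate block 1044 genes were called, 519 genes called higher and 525 genes called lower. With crossed numbers as the block 1479 were called (723 and 756). Depth, from 34.1 to 94.4 M reads, limits genes near a value of 1 most, where the pseudocount shrinks changes.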

Other observations

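As means of the Pkd1 groups, 13 genes passed from below 1 in the controls to at least 5 in the knockouts. Beside Il18r1, Fos, Egr2, Ankrd1, Timp1, Krt80 and Ltbp2 these were Map6, Lrrc31, Fcgbp, Rgs16, Hp and Gprc5a, named after their values were seen. Fcgbp was at 1.02 and 0.612 in the controls and 4.65 and 12 in the knockouts (held in 1 of 4). Hp, haptoglobin, which binds free hemoglobin, was at 0.607 and 0.656 in the controls and 4.25 and 6.69 in the knockouts (log2 change 1.96 ± 0.43, adjusted p = 0.0236, held in 0 of 4). Rgs16, a brake on G protein signals, was at 0.73 and 0.787 against 9.19 and 6.65 (log2 change 2.33 ± 0.22, adjusted p = 0.0011), and Gprc5a, an orphan receptor of epithelia, at 1.01 and 0.70 against 5.38 and 4.74 (log2 change 1.71 ± 0.26, adjusted p = 0.00614, held in 3 of 4). In the other direction 5 genes passed from at least 5 to below 1: Atp4a, Slc26a4, Dnase1, Mogat2 and Gcgr. Dnase1, a secreted DNA-cleaving enzyme, was at 5.52 and 6.71 in the controls and 0.816 and 1.06 in the knockouts (log2 change -1.87 ± 0.22, adjusted p = 0.0025). Gcgr, the glucagon receptor, was at 5.25 and 5.97 against 0.799 and 0.91 (log2 change -1.83 ± 0.20, adjusted p = 0.00185), with both knockouts under 1.

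Some antisense RNAs fell. Of 77 tested, 12 fell and 1 rose, 16.9% in all, against 11.3% of protein-coding genes and 5.07% of intergenic long noncoding RNAs. In the Pkd1 kidneys C130021I20Rik, Hnf1aos1, Tbx3os1, Hnf4aos, 1810041H14Rik and D630008O14Rik, which fell, reached the filter value of 1 only in the controls. Others that fell, such as Gm16010 and Hoxb5os, reached it in both groups. Entry to the test could thus depend on the change itself, so this share and split do not describe antisense RNAs as a class. Hnf4aos, opposite Hnf4a, was at 1.48 and 2.19 in the controls and 0.399 and 0.317 in the knockouts (log2 change -1.05 ± 0.28, adjusted p = 0.0477, held in 0 of 4). Hoxb5os was at 3.44 and 4.13 against 1.86 and 1.19 (log2 change -0.93 ± 0.23, adjusted p = 0.0367, held in 0 of 4), while its partner Hoxb5 was at 5.68 and 3.41 against 3.68 and 3.22 (log2 change -0.29 ± 0.24, adjusted p = 0.472, not called). Gm16010 had the largest fall of the type, at 32.2 and 28 against 8.11 and 4.27 (log2 change -2.16 ± 0.37, adjusted p = 0.00954, held in 2 of 4). These genes were named after their values were seen, most lie near the filter on low values, and no source used here gives the strand setting of the counting, which leaves their values and those of their partners uncertain.

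The AP-1 letters TGANTCA, searched on both strands of the 250 bases before a start site, stood in 7.80% of windows of genes that rose, 4.71% of those that fell and 4.68% of all tested. GGAATG stood in 15.7%, 12% and 10.9% in the same order, TGATGNAA in 3.40%, 2.04% and 1.94%, and the CArG box in 1.56%, 1.15% and 1.18%. The CRE letters TGACGTCA, the last of the 5 motifs searched, stood in 1.99%, 0.892% and 2.42%, the highest share being that of all tested. These shares are descriptions and show no binding.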
